A study of Mus musculus with 9 samples.

Results

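Rbpj, Hes1, Hes5, Hey1, Hey2, Heyl, Nrarp, Dtx1, Dtx4 and Numb, genes that act inside the cell in the Notch pathway or answer to it, were measured in the whole brain of embryonic day 14 mice. The 10 genes, out of 56748 in the count table, were taken by their symbols, a rule that uses no measured value. The symbols themselves were chosen with earlier results of these data known. The 9 libraries fell into 3 groups of 3. One group had been exposed to valproic acid, an anticonvulsant that inhibits histone deacetylases, another to poly(I:C), a man-made double-stranded RNA used as a mimic of a virus, and the controls to saline. The series concerns Notch signalling in mice that model autism, and both exposures are used as such models. The mice carry no engineered allele in the labels, and their dose, day of exposure, litter, sex and strain are not stated in the labels.

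Notch is a receptor read by direct contact between neighbouring cells. After ligand binding its intracellular part is cut free, enters the nucleus and joins the DNA-binding protein Rbpj, which otherwise holds target genes down. The best known targets encode Hes and Hey repressors, which in the embryonic brain keep radial glia, the neural stem cells, from becoming neurons by holding down proneural genes. Nrarp, also a target, limits the Notch complex. The Deltex proteins Dtx1 and Dtx4 are ubiquitin ligases that act on Notch, and Numb is an endocytic adaptor that opposes Notch signalling.

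Libraries held 15399974 to 19883131 counts, with group means of 16720542 ± 1159918 for valproic acid, 17915051 ± 755918 for poly(I:C) and 18071353 ± 1647875 for control (SD, n = 3 each). The biological coefficient of variation, the spread between libraries beyond counting error, was 7.44%. Xist, transcribed from the inactive X chromosome of females, stood at 981 to 1055 CPM (counts scaled by library size) in the 3 valproic acid libraries and at 1048 CPM in poly(I:C) replicate 3, and at 0.236 CPM or less elsewhere. A sum of Kdm5d, Ddx3y, Eif2s3y and Uty, all on the Y chromosome, stood at 196 to 201 CPM in poly(I:C) replicates 1 and 2 and control replicates 1 and 2, and at 0 in the rest, so that control replicate 3 held neither signal. Sex and valproic acid exposure can therefore not be told apart. The tissue label was met by its markers: radial glia genes summed to 2254 to 2492 CPM and neuron genes to 6583 to 7559 CPM over the libraries, and liver genes, as a check on other tissue, to 0.922 CPM or less. In whole brain RNA, fewer cells of a type and less RNA per cell cannot be told apart. The labels do not say that replicates came from separate embryos or litters, so p-values measure the spread between these samples only. Sex signals differed between replicates of poly(I:C) and of control, so the spread there is not technical alone. In valproic acid they did not differ, and whether the spread there is technical alone was not tested. The chi-square per degree of freedom between libraries was 3.84 to 6.28 within valproic acid, 4.02 to 4.93 within poly(I:C) and 4.49 to 5.12 within control.

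The genes Rbpj, Hes5 and Hey2 have the core of the Rbpj binding sequence, TGGGAA, which reads on the other strand as TTCCCA, within the 250 bases before a RefSeq transcription start. Their windows are printed to show where the cores lie. Windows were on hand for 6 of the 10 genes, 9 windows in all (RefSeq, GRCm38.p6), and the core stood in those of Rbpj, Hes5 and Hey2 but not in those of Nrarp, Dtx1 and Numb. The first of 2 overlapping Rbpj windows lies at chr5:53590096-53590345 on the plus strand, the Hes5 window at chr4:154960673-154960922 on the plus strand and the Hey2 window at chr10:30842784-30843033 on the minus strand. Each is printed 5′ to 3′ in the direction of transcription, with the cores in capitals.
Rbpj: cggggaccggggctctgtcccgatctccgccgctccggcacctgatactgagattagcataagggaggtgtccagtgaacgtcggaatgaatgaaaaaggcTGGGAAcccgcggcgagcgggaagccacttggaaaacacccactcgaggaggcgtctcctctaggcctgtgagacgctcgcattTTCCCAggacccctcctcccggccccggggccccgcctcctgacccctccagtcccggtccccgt
Hes5: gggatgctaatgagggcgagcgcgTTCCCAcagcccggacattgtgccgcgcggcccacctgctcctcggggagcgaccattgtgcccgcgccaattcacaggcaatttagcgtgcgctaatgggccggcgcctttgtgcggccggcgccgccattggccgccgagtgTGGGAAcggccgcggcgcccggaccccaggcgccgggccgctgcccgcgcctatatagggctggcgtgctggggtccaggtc
Hey2: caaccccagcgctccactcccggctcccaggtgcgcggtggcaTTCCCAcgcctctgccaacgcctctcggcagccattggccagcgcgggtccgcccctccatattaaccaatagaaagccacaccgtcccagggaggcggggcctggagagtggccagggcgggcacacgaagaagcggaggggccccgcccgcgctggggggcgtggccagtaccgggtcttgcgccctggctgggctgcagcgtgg
The cores of Rbpj begin 149 and 65 bases before the start, those of Hes5 226 and 82 bases, and that of Hey2 207 bases. Both Hes5 cores and the Hey2 core extend to TTCCCAC or its reverse complement GTGGGAA, and those of Rbpj do not. Among all 32851 promoter windows of that length, 21.6% hold the core on either strand and 5.42% the longer form, which includes the core. The E box CACGTG, a sequence that Hey proteins can bind, stood once in the Nrarp window and in 6.02% of all windows. A match of letters is not a binding site, and binding was not measured in these samples.

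All 10 genes passed the filter on low counts, with 114 counts (Hey2) to 2786 counts (Dtx1) per library, and their levels kept nearly one order in all groups. Per kilobase of exon, Dtx1 was the most abundant at 24.9 ± 0.13 CPM per kb in valproic acid, 27.0 ± 0.207 in poly(I:C) and 26.3 ± 0.582 in control (SD, n = 3 each). Dtx4 followed at 18.7, 19.0 and 18.8 CPM per kb in the same order of groups. The targets came next: Hes5 at 13.8, 14 and 10.3, Hey1 at 10.5, 9.82 and 8.96, and Hes1 at 7.60, 8.75 and 7.50 CPM per kb. Nrarp stood at 6.99, 6.44 and 6.70, Numb at 6.94, 6 and 5.7, and Rbpj at 6.97, 5.70 and 4.51 CPM per kb. The Hey genes best known from vessels and heart were lowest, Heyl at 3.47, 3.24 and 3.45 and Hey2 at 1.64, 1.66 and 1.77 CPM per kb. The order depends on the length used, the union of all annotated exons, which was 12750 bases for Rbpj and 1363 for Hes5. Before division by length, Rbpj averaged 57.5 CPM and Hes5 14.1 CPM in control. Neighbours in this order whose libraries overlapped were Nrarp with Rbpj and Rbpj with Numb in valproic acid, Nrarp with Numb and Numb with Rbpj in poly(I:C), and Hes5 with Hey1, Hes1 with Nrarp and Nrarp with Numb in control. Genes on the opposite strand that overlap members held few counts, 1 to 11 per library for Gm20421 at Hes5, 0 to 5 for Gm46367 at Numb, 0 or 1 for Gm10441 at Rbpj, and 0 for Gm38287 at Nrarp and Gm40304 at Rbpj.

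**Figure D1:**
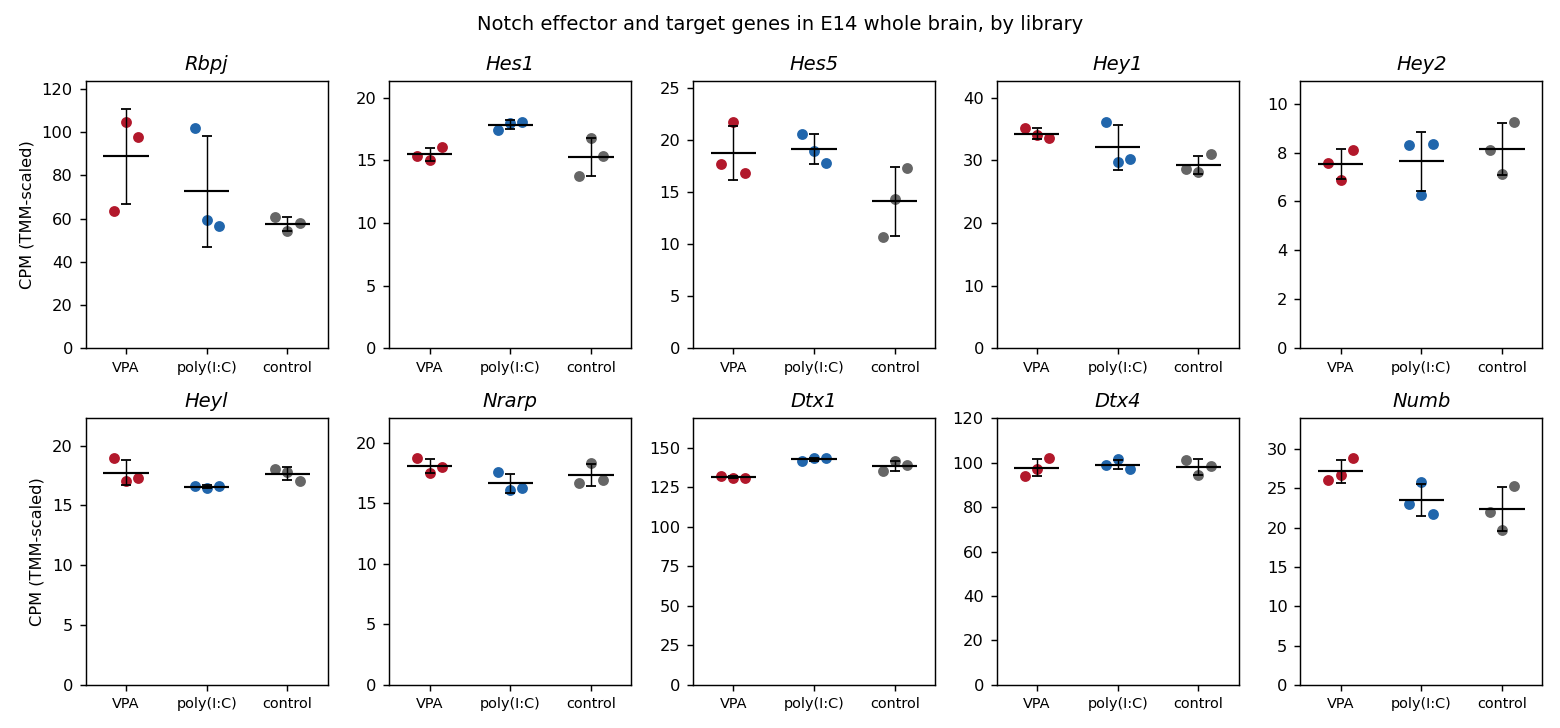
CPM (y axis, from 0) of each of the 10 genes in the valproic acid, poly(I:C) and control libraries; points are libraries, the line is the group mean and the bar 1 SD (n = 3). Rbpj is spread over 63.6 to 104.9 CPM in valproic acid and 56.5 to 102.1 CPM in poly(I:C) but 54.1 to 60.6 CPM in control, while the Dtx1 libraries of each group lie close together.

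Valproic acid was first set against control, the question being whether the exposure moves the output of the Notch pathway. No member passed the test: edgeR's quasi-likelihood method called 0 of 10 at a Benjamini-Hochberg adjusted p under 0.05, against 6.35% of the 17171 genes tested, and DESeq2 called 0 as well. At an unadjusted p under 0.05 there were 5 of 10, against 22.1% of all genes, with Rbpj, Hes5, Hey1 and Numb higher (11.2% of all genes) and Dtx1 lower (10.9%) in valproic acid. The 3 valproic acid libraries lay apart from the 3 control libraries for 4 of 10, against 25.6% of all genes, with Rbpj, Hey1 and Numb above (12.6% of all genes) and Dtx1 below (13%). The median log2 fold change of the 10 was 0.039, against -0.0033 over all tested genes.

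Rbpj, the effector itself, had 63.6, 104.9 and 98.0 CPM in valproic acid replicates 1, 2 and 3, against 60.6, 54.1 and 57.9 CPM in control replicates 1, 2 and 3. Replicates 2 and 3 of valproic acid stood far above every control library, and replicate 1 just above the highest. The means were 88.8 ± 22.1 and 57.5 ± 3.31 CPM (SD, n = 3 each), a log2 fold change of 0.63 ± 0.195 (SE, 95% interval 0.21 to 1.04) with an adjusted p of 0.0705 in edgeR. Within valproic acid the spread between libraries was 24.9% of the mean, where counting error alone gives 2.62%. This difference crossed the threshold under some settings: without valproic acid replicate 1 it was 0.82 (adjusted p 0.0184), and with the 6 libraries compared fitted alone it was 0.63 (adjusted p 0.0266). Over all alternatives the adjusted p ran between 3.78e-24, with no filter on low counts, and 0.315. With 1 library left out it ran between 0.0184 and 0.209.

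Of the Hes repressors, which hold down proneural genes, Hes5 had 17.7, 21.7 and 16.8 CPM in valproic acid, against 10.7, 14.3 and 17.3 CPM in control. Control replicate 3 lay inside the valproic acid range and the other control libraries below it. The means were 18.75 ± 2.63 and 14.1 ± 3.30 CPM, the log2 fold change was 0.41 ± 0.145 (SE, 95% interval 0.098 to 0.72) and the adjusted p 0.109. Without control replicate 1 the log2 fold change was 0.25 (adjusted p 0.321), and without control replicate 3 it was 0.58 (adjusted p 0.0379). Over the alternatives the adjusted p ran between 0.00599, with no filter on low counts, and 0.51. Hes1 had 15.4, 15.04 and 16.0 CPM in valproic acid, against 13.8, 16.8 and 15.3 CPM in control, so that the valproic acid libraries lay within the control range. Its log2 fold change was 0.017, with a 95% interval of -0.18 to 0.21. Whether the 2 genes differ in their response was not tested.

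Of the Hey repressors, Hey1 was the one whose groups lay apart. Hey1 had 35.2, 34.0 and 33.6 CPM in valproic acid, against 28.6, 28.2 and 31.0 CPM in control, and every valproic acid library stood above every control library. Its valproic acid libraries had a CV of 2.42%, less than the 4.2% that counting error gives. Its log2 fold change was 0.23 ± 0.0782 (SE, 95% interval 0.060 to 0.39) with an adjusted p of 0.0989, and no alternative brought it past the threshold (adjusted p between 0.0647 and 0.459). Hey2 had 7.59, 6.88 and 8.11 CPM in valproic acid, against 8.09, 7.11 and 9.26 CPM in control, with overlap between the groups and an adjusted p of 0.691. Heyl had 18.9, 17.0 and 17.3 CPM in valproic acid, against 18.1, 17.8 and 17.0 CPM in control, again with overlap (adjusted p 0.965).

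The modulators of Notch differed by small amounts. Nrarp, a feedback inhibitor, averaged 18.1 ± 0.603 CPM in valproic acid and 17.3 ± 0.906 CPM in control (SD, n = 3 each; adjusted p 0.712). Dtx1 had 131.9, 130.6 and 130.9 CPM in valproic acid, against 135.4, 141.6 and 138.7 CPM in control, and all valproic acid libraries lay below all control libraries. The log2 fold change was small at -0.079 ± 0.0363 (SE, 95% interval -0.16 to -0.0018), with an adjusted p of 0.214. The 3 valproic acid libraries differed by 0.524% of their mean (CV), less than the 2.15% that counting error gives. Dtx4 averaged 97.7 ± 3.89 and 98.1 ± 3.51 CPM in valproic acid and control, a log2 fold change of -0.0066 with a 95% interval of -0.11 to 0.092 (adjusted p 0.957).

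Numb, the antagonist, had 26.0, 26.75 and 28.8 CPM in valproic acid, against 21.96, 19.75 and 25.3 CPM in control. The lowest valproic acid library stood just above the highest control library, replicate 3. The means were 27.2 ± 1.45 and 22.35 ± 2.81 CPM, the log2 fold change 0.28 ± 0.0954 (SE, 95% interval 0.075 to 0.48) and the adjusted p 0.0968. Without control replicate 3 the log2 fold change was 0.38 with an adjusted p of 0.0426, in a range between 0.0426 and 0.407 over the alternatives. Of the libraries left out in turn, control replicate 3 was the one without which Hes5 and Numb passed the threshold, and it is the control library with neither Xist nor Y-linked signal.

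**Figure D2:**
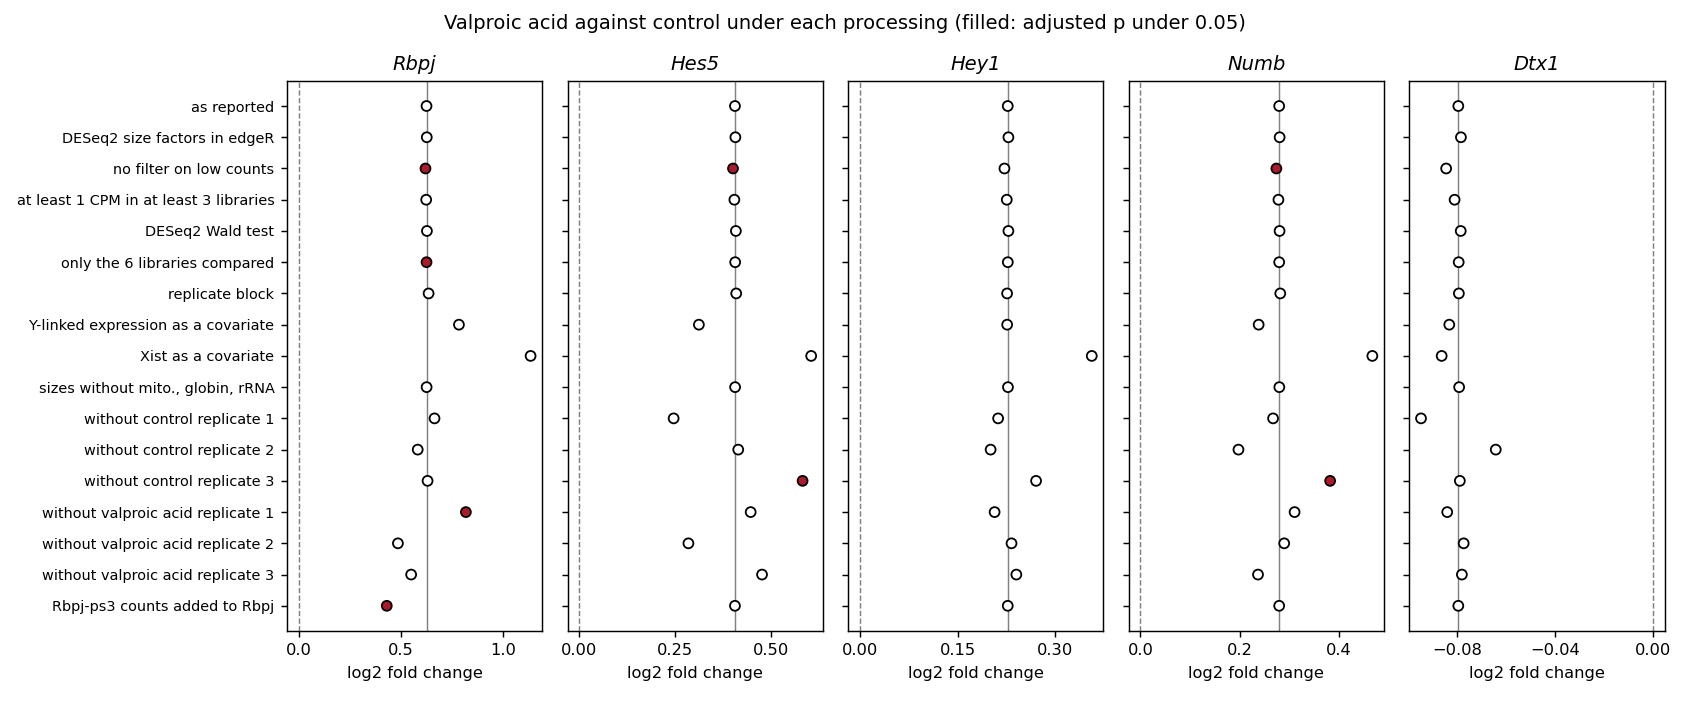
Log2 fold change of Rbpj, Hes5, Hey1, Numb and Dtx1 (x axes) for valproic acid against control under each way of processing (rows); the grey line is the value as reported, and filled points have an adjusted p under 0.05. Rbpj stays between 0.43 and 1.14 and is filled in 4 of 16 alternatives, Hes5 and Numb in 2 each, and Hey1 and Dtx1 in none.

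Poly(I:C) was set against the same control libraries, so that the comparison shares them with the one above. Again no member passed the test in edgeR, 0 of 10 against 0.536% of all genes (0.262% higher and 0.274% lower), and DESeq2 called 0. At an unadjusted p under 0.05 there were 2 of 10, Hes1 and Hes5, both higher, against 12% of all genes (6.2% higher and 5.82% lower). Groups lay apart for 3 of 10, Hes1 and Hes5 above and Heyl below control, against 18.4% of all genes (9.6% above and 8.83% below). The median log2 fold change of the 10 was 0.056, against -0.0030 over all tested genes.

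Both Hes genes stood above control in every poly(I:C) library. Hes5 had 20.6, 18.95 and 17.8 CPM in poly(I:C), against 10.7, 14.3 and 17.3 CPM in control, the highest control library lying close under the lowest poly(I:C) library. Its log2 fold change was 0.43 ± 0.144 (SE, 95% interval 0.13 to 0.74) with an adjusted p of 0.228, and without control replicate 1 it was 0.27 (adjusted p 0.53). Over the alternatives the adjusted p of Hes5 ran between 0.00678, with no filter on low counts, and 0.53. Hes1 had 17.4, 18.01 and 18.1 CPM in poly(I:C), against 13.8, 16.8 and 15.3 CPM in control. The poly(I:C) libraries of Hes1 were nearly level, with a CV of 2.07%, less than the 5.6% that counting error gives. The log2 fold change of Hes1 was 0.22 ± 0.0889 (SE, 95% interval 0.032 to 0.41) with an adjusted p of 0.322. Side by side, then, Hes5 had log2 fold changes of 0.41 under valproic acid and 0.43 under poly(I:C), and Hes1 of 0.017 and 0.22, all against the same controls and none past the threshold. Both Hes5 values were smaller without control replicate 1, its lowest library.

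Rbpj had 102.1, 59.25 and 56.5 CPM in poly(I:C), against 60.6, 54.1 and 57.9 CPM in control. Replicate 1 alone stood high, and replicates 2 and 3 lay within the control range. The log2 fold change of 0.34 ± 0.196 (SE, 95% interval -0.080 to 0.76, adjusted p 0.535) came down to 0.0084 without poly(I:C) replicate 1 (adjusted p 0.995). Over the alternatives the adjusted p of Rbpj ran between 2.19e-06, with no filter on low counts, and 0.995. The fit without that filter was the only 1 of them to pass the threshold. Hey1 had 36.2, 29.8 and 30.3 CPM in poly(I:C), against 28.6, 28.2 and 31.0 CPM in control, with the same replicate 1 highest, and its log2 fold change of 0.13 (adjusted p 0.55) was 0.034 without that library. Heyl had 16.65, 16.4 and 16.6 CPM in poly(I:C), against 18.1, 17.8 and 17.0 CPM in control. All poly(I:C) libraries of Heyl lay below all controls, by a log2 fold change of -0.090 with a 95% interval of -0.26 to 0.080 (adjusted p 0.711). These 3 libraries had a CV of 0.738%, less than the 5.81% that counting error gives.

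The remaining members lay close to control, with overlapping libraries. Hey2 averaged 7.64 ± 1.2 and 8.15 ± 1.08 CPM in poly(I:C) and control, and Nrarp 16.6 ± 0.812 and 17.3 ± 0.906 CPM. Dtx1 averaged 142.5 ± 1.09 and 138.5 ± 3.07 CPM, Dtx4 99.2 ± 2.20 and 98.1 ± 3.51 CPM, and Numb 23.5 ± 2.06 and 22.35 ± 2.81 CPM (SD, n = 3 each). Their log2 fold changes lay between -0.097 (Hey2) and 0.071 (Numb), with adjusted p between 0.714 and 0.928 in edgeR.

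**Figure D3:**
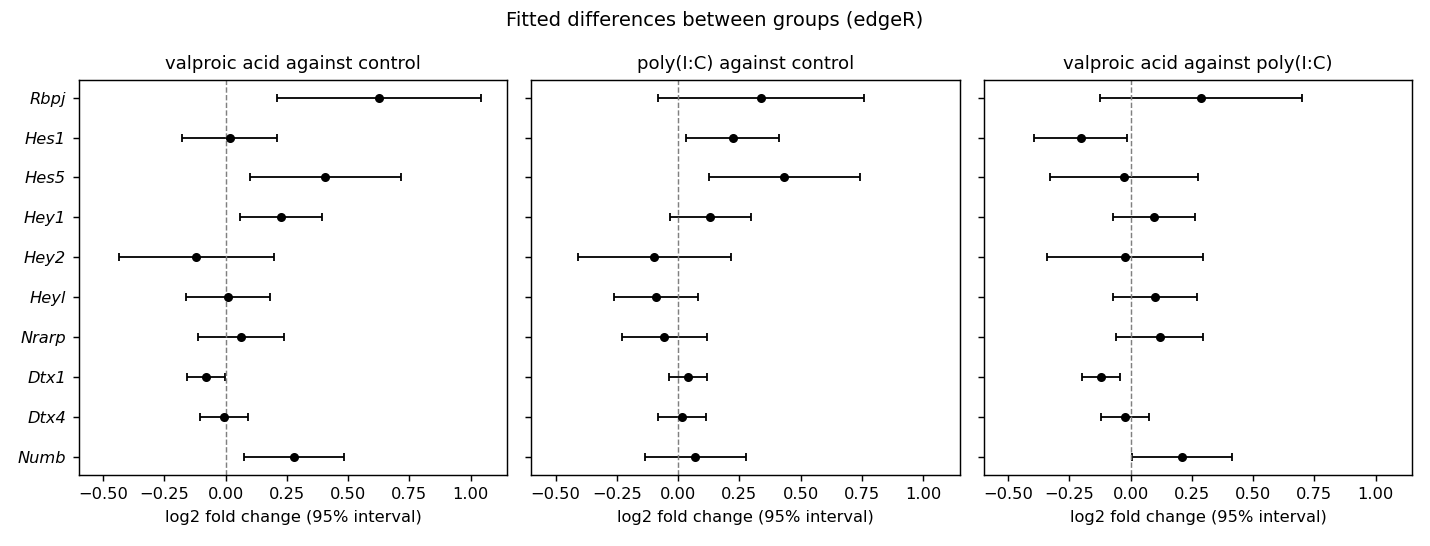
Log2 fold change with its 95% interval (x axes) of each of the 10 genes for valproic acid against control, poly(I:C) against control, and valproic acid against poly(I:C). Rbpj has the widest interval against control, 0.21 to 1.04 under valproic acid and -0.080 to 0.76 under poly(I:C), and Dtx1 the narrowest.

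Set directly against poly(I:C), valproic acid again had 0 of 10 members called by edgeR, against 2.59% of all genes (1.42% higher and 1.18% lower), and 0 by DESeq2. There were 3 of 10 at an unadjusted p under 0.05, against 16.6% of all genes (8.21% higher and 8.43% lower), with Numb higher and Hes1 and Dtx1 lower in valproic acid. Groups lay apart for 4 of 10, against 21.9% of all genes (10.5% above and 11.4% below), with Heyl and Numb above and Hes1 and Dtx1 below. The median log2 fold change of the 10 was 0.037, against 3.02e-05 over all tested genes. Dtx1 had 131.9, 130.6 and 130.9 CPM in valproic acid, against 141.2, 143.1 and 143.1 CPM in poly(I:C). This gap of -0.12 ± 0.0363 (SE, 95% interval -0.20 to -0.042) on the log2 scale had the lowest adjusted p of the 10, 0.0988. In poly(I:C) too the Dtx1 libraries had a CV, 0.766%, under the 1.98% of counting error. Hes1 had 15.4, 15.04 and 16.0 CPM in valproic acid, against 17.4, 18.01 and 18.1 CPM in poly(I:C), a log2 fold change of -0.21 ± 0.0895 (SE, adjusted p 0.263). Numb had 26.0, 26.75 and 28.8 CPM in valproic acid, against 23.0, 25.8 and 21.7 CPM in poly(I:C), with a log2 fold change of 0.21 ± 0.0952 (SE, adjusted p 0.286). For Hes5 the exposures lay together, with a log2 fold change of -0.027 and a 95% interval of -0.33 to 0.28. Rbpj (0.29), Hey1 (0.096), Hey2 (-0.022), Heyl (0.10), Nrarp (0.12) and Dtx4 (-0.023) had adjusted p between 0.494 and 0.964.

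The high Rbpj libraries cut across the groups. Valproic acid replicates 2 and 3 and poly(I:C) replicate 1 had 98.0 to 104.9 CPM, and the other 6 libraries 54.1 to 63.6 CPM, with nothing between. Rbpj has a processed pseudogene on chromosome 6, Rbpj-ps3, and reads may be split between the gene and this copy, so the level of either is uncertain. Rbpj-ps3 had 31.5, 23.4 and 22.3 CPM in valproic acid, 22.3, 31.7 and 29.7 CPM in poly(I:C), and 28.4, 26.35 and 27.6 CPM in control. Thus the 3 libraries high in Rbpj were the 3 lowest in Rbpj-ps3. With the counts of the copy added, the gene had 95.1, 128.3 and 120.3 CPM in valproic acid, 124.5, 90.9 and 86.2 CPM in poly(I:C) and 89.0, 80.4 and 85.5 CPM in control. The same 3 libraries stayed highest after the addition, and the log2 fold change of valproic acid against control became 0.43 with an adjusted p of 0.0466. The other listed copy, Rbpj-ps1, had 0 counts in every library.

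A pair of other genes on chromosome 5, where Rbpj lies, followed the same split, and both were looked up after their values were seen. Gm15975, a processed pseudogene, had 0.175, 2.16 and 1.505 CPM in valproic acid, 1.68, 0.330 and 0.294 CPM in poly(I:C), and 0.118, 0.338 and 0.448 CPM in control. It was highest in the 3 libraries high in Rbpj. Adra2c, the alpha-2C adrenergic receptor, had 5.78, 3.90 and 3.86 CPM in valproic acid, 4.01, 5.99 and 5.65 CPM in poly(I:C), and 5.25, 6.54 and 6.27 CPM in control. It was lowest in those 3 libraries. Neither gene differed between groups in edgeR (adjusted p 0.15 for Gm15975 and 0.235 for Adra2c in valproic acid against control), and what sets these 3 libraries apart was not tested.

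**Figure D4:**
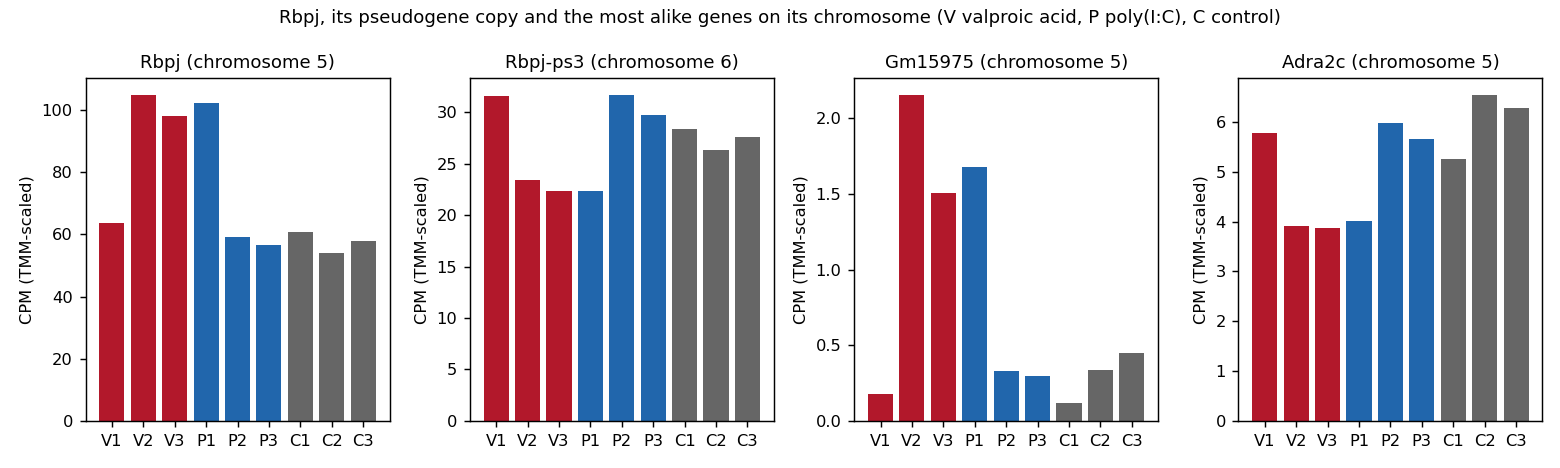
CPM (y axes, from 0) of Rbpj, its pseudogene copy Rbpj-ps3, Gm15975 and Adra2c in each library, numbered by replicate within valproic acid (V), poly(I:C) (P) and control (C). V2, V3 and P1 are the highest 3 bars for Rbpj and Gm15975 and the lowest 3 for Rbpj-ps3 and Adra2c.

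The rest of the pathway was read from lists of genes upstream of Rbpj, at its complex and downstream of it. In valproic acid against control, 5 of 25 receptors, ligands and processing enzymes were called higher and 1 lower, against 3.57% of all genes called higher and 2.78% lower. The list's median log2 fold change was 0.074. Notch1, a receptor of radial glia, averaged 188 ± 16.6 CPM in valproic acid and 142 ± 6.30 CPM in control (log2 fold change 0.41, adjusted p 0.00125). The receptor Notch2 averaged 124 ± 16.8 and 93.6 ± 2.21 CPM in valproic acid and control (0.40, adjusted p 0.00631). Mfng, a fringe glycosyltransferase that tunes the receptor for its ligands, averaged 60.0 ± 3.69 and 48.8 ± 0.396 CPM (0.30, adjusted p 0.00921).

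At the Rbpj complex, 3 of 16 tested coactivators and corepressors were called higher in valproic acid and 0 lower, with a list median of 0.105. Of all genes, 3.57% were called higher and 2.78% lower. The histone acetyltransferase Ep300, which joins the active complex, averaged 163 ± 12.8 CPM in valproic acid and 135 ± 5.6 CPM in control (log2 fold change 0.27, adjusted p 0.00882). Its relative Crebbp averaged 131 ± 1.57 and 117 ± 3.22 CPM (0.17, adjusted p 0.0265). Of the 9 tested other Hes genes and Groucho corepressors, partners of Hes proteins, 1 was called higher and 1 lower, against the same shares. The list's median was 0.052. Hes6, which promotes neuronal differentiation and opposes Hes1, averaged 123 ± 2.17 and 101 ± 3.09 CPM in valproic acid and control (0.29, adjusted p 0.00218). The Groucho gene Tle4 averaged 95.4 ± 2.17 and 111 ± 2.65 CPM (-0.22, adjusted p 0.0126).

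Among 12 genes of Notch turnover and partners of Numb, 1 was called higher and 2 lower, against 3.57% and 2.78% of all genes. The list's median was 0.0036. Lnx1, a ubiquitin ligase that binds Numb, averaged 2.16 ± 0.209 CPM in valproic acid and 4.44 ± 0.332 CPM in control (log2 fold change -1.04, adjusted p 0.00527). The ubiquitin ligase Nedd4 averaged 1560 ± 58.0 and 1410 ± 12.2 CPM (0.15, adjusted p 0.0139), and the endocytic adaptor Eps15 82.1 ± 3.23 and 93.9 ± 5.84 CPM (-0.19, adjusted p 0.0427). Downstream of the Hes repressors, 5 of 8 tested proneural and intermediate progenitor genes were called higher and 0 lower. The shares over all genes were again 3.57% and 2.78%, and the list's median was 0.30. Neurog2, a proneural factor of the cortex that Hes proteins repress, averaged 216 ± 6.90 CPM in valproic acid and 145 ± 5.61 CPM in control (0.57, adjusted p 7.72e-06). Eomes, a factor of intermediate progenitors, averaged 193 ± 10.8 and 149 ± 4.46 CPM (0.37, adjusted p 0.000453), and the antiproliferative gene Btg2 70.5 ± 3.70 and 53.8 ± 2.26 CPM (0.39, adjusted p 0.00493).

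These calls did not all hold. Without control replicate 1 the calls of Crebbp (adjusted p 0.0979) and Nedd4 (0.0534) were lost, without control replicate 3 those of Crebbp and Eps15 (0.145 for Eps15), and that of Eps15 also without valproic acid replicate 1, 2 or 3 or control replicate 1, and that of Crebbp without valproic acid replicate 2 or 3. With Y-linked expression as a covariate Notch1 (adjusted p 0.0216), Notch2 (0.0362), Ep300 (0.0424), Hes6 (0.0434), Lnx1 (0.0285), Neurog2 (0.000297) and Eomes (0.0105) were called and the others named here were not. With Xist as a covariate Neurog2 alone was called (0.0335). Every valproic acid library and no control library carried Xist, so neither covariate can separate sex from valproic acid exposure. Y-linked expression also sets control replicate 3 with the valproic acid libraries.

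Poly(I:C) against control had 0 genes called by edgeR in the first 4 of these lists, where only 0.536% of all genes were called. The medians of these lists were -0.00075, 0.048, 0.064 and 0.024. Of the proneural genes 1 of 8 was called, and it was higher, against 0.262% of all genes called higher. The median of the proneural genes was 0.064. The gene called was Neurog2, at 177 ± 6.66 CPM in poly(I:C) and 145 ± 5.61 CPM in control (log2 fold change 0.28, adjusted p 0.00615). It kept its call with any library left out (adjusted p up to 0.0471). The call was lost with Xist as a covariate (0.0535) and in the libraries with Y-linked signal alone (0.0797). In valproic acid against poly(I:C), 3 of 25 receptors, ligands and processing enzymes were called higher, against 1.42% of all genes. Notch2 averaged 124 ± 16.8 and 88.7 ± 3.14 CPM (0.48, adjusted p 0.00436), the ligand Dll1 80.2 ± 3.95 and 68.0 ± 2.90 CPM (0.24, adjusted p 0.025), and Notch1 188 ± 16.6 and 160 ± 7.28 CPM (0.24, adjusted p 0.0434). Hes6 (0.29, adjusted p 0.00408) was higher and Tle4 (-0.21, 0.0258) and Lnx1 (-0.75, 0.0486) lower in valproic acid than in poly(I:C). Of the proneural genes 3 of 8 were higher, Eomes (0.38, adjusted p 0.000444), Neurog2 (0.29, 0.00254) and the related proneural factor Neurog1 (0.72, 0.0375). The calls of Dll1 and Tle4 were lost without poly(I:C) replicate 2 or 3 or valproic acid replicate 2 or 3, that of Notch1 without any library but valproic acid replicate 1, and those of Lnx1 and Neurog1 without any 1 of the 6 libraries. With Y-linked expression as a covariate Notch2 (adjusted p 0.028), Eomes (0.00986) and Neurog2 (0.049) were called and the others named here were not (Hes6 at 0.0653). With Xist as a covariate Eomes alone was called (0.0334), with Notch2 at 0.0895, Neurog2 at 0.184 and Hes6 at 0.224. Of the poly(I:C) libraries, replicate 3 alone carried Xist and lacked Y-linked signal, so neither covariate separates sex from exposure well here.

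**Figure D5:**
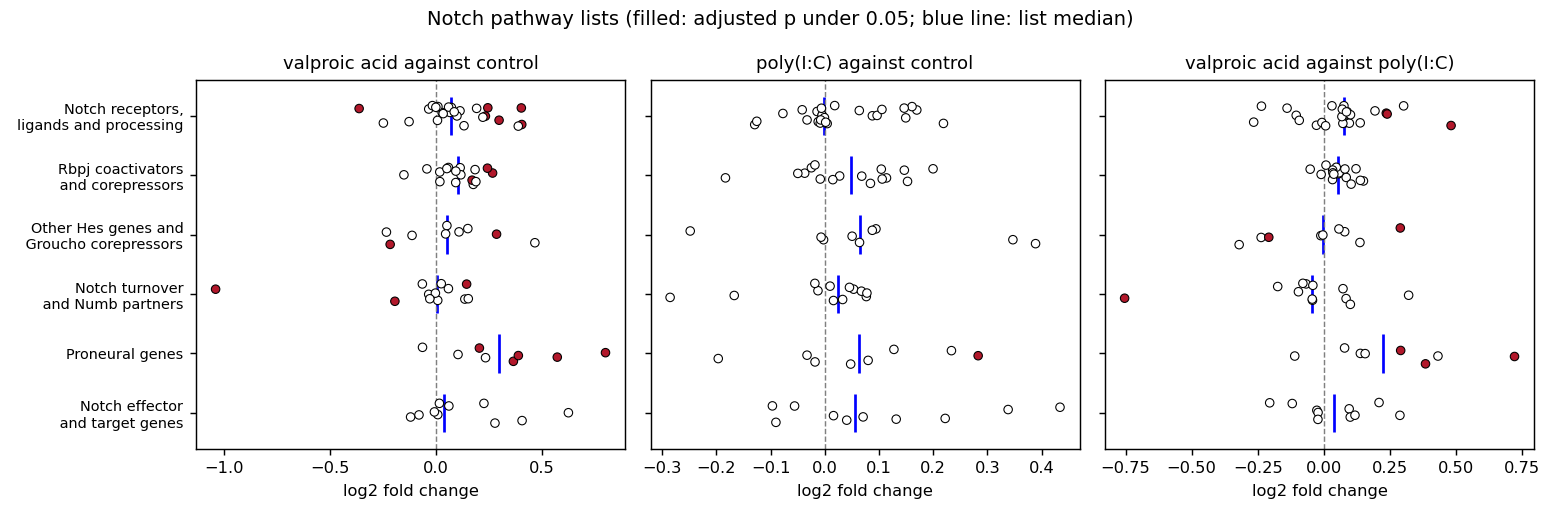
Log2 fold change (x axes) of each tested gene of 5 pathway lists and of the 10 effector and target genes in the 3 comparisons; filled points have an adjusted p under 0.05 and blue lines are list medians. Under valproic acid against control the proneural list has the highest median, 0.30, and the 10 effector and target genes, at 0.039, have no filled point.

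Markers of the cell types in whole brain were read beside these values. Radial glia express Hes1, Hes5 and Notch1, and their 9 markers summed to 2393 to 2492 CPM in valproic acid, 2304 to 2370 CPM in poly(I:C) and 2254 to 2295 CPM in control. Against control, 3 of 9 were called higher in valproic acid, Vim, Pax6 and Prom1, against 3.57% of all genes. In poly(I:C) 0 of 9 were called, against 0.536% of all genes. Neuron markers summed to 6583 to 7008 CPM, 7169 to 7559 CPM and 7204 to 7407 CPM in the same order of groups. In valproic acid 4 of 9 were called lower than in control, Map2, Stmn2 and Mapt among them, against 2.78% of all genes. List medians of the log2 fold change in valproic acid against control were 0.106 for radial glia and -0.158 for neurons.

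Blood vessels also express Hey1, Hey2 and Heyl. Endothelial markers summed to 306 to 333 CPM in valproic acid, 288 to 304 CPM in poly(I:C) and 300 to 315 CPM in control. Of these 8 markers Pecam1 alone was called against control, higher in valproic acid, where 3.57% of all genes were called higher. The 7 other endothelial markers went both ways in valproic acid, and the list's median log2 fold change was 0.081. Mural cell markers summed to 210.5 to 245 CPM, 210 to 217 CPM and 235 to 238 CPM in the same order. Acta2 and Rgs5, 2 of 8, were called lower in valproic acid than in control, against 2.78% of all genes. The 6 other mural markers were not called and went both ways, and the list's median log2 fold change was -0.016. Red cell genes summed to 2258 to 2619 CPM in valproic acid, 1386 to 2018 CPM in poly(I:C) and 1794 to 2093 CPM in control. Against 3.57% of all genes, 4 of 10 were called higher in valproic acid than in control, among them Slc4a1, Hba-x and Hbb-y. Microglia markers summed to 78.1 to 94.0 CPM, 85.8 to 92.0 CPM and 97.4 to 103 CPM. P2ry12 and Csf1r, 2 of 8, were called lower in valproic acid than in control, against 2.78% of all genes. List medians in that comparison were 0.77 for red cells and -0.229 for microglia. Choroid plexus markers, at 529 to 592, 514 to 590 and 489 to 638 CPM, had 0 of 4 called, against 6.35% of all genes in valproic acid against control. In valproic acid against poly(I:C), 8 of 10 red cell genes were called higher, Slc4a1, Hba-x and Hbb-y among them, against 1.42% of all genes. In the same comparison 3 of 9 neuron markers, Gap43, Mapt and Map2, and 1 of 8 mural markers, Acta2, were called lower (1.18% of all genes). Called higher were 1 of 9 radial glia markers, Vim, and 1 of 8 endothelial markers, Pecam1 (1.42% of all genes). List medians of the log2 fold change were -0.122 for neurons, 0.0749 for mural cells, 0.0725 for radial glia and 0.115 for endothelium. The mural median thus had the opposite sign to Acta2. In poly(I:C) against control no marker of any list was called by edgeR, where 0.536% of all genes were called. No marker listed was at 0 in every library, though the liver gene Apoa2 was at 0 in all valproic acid and poly(I:C) libraries. Marker calls of valproic acid against control were also lost when 1 library was left out, in 5 of 6 fits for Stmn2, in 4 for Mapt and Pecam1, in 3 for Map2, in 2 for Prom1 and Csf1r and in 1 for Rgs5. With Y-linked expression as a covariate Map2 (adjusted p 0.0584), Stmn2 (0.124), Mapt (0.188), Prom1 (0.183), Rgs5 (0.109) and P2ry12 (0.0799) were not called, and with Xist as a covariate none of the markers named for that comparison was. In valproic acid against poly(I:C) the marker calls were lost in 5 of 6 fits for Pecam1, in 4 for Map2, in 3 for Mapt and Acta2 and in 2 for Gap43 and Hbb-y. Among the markers named, the call that held there with Xist as a covariate was Slc4a1 (0.0299). As above, the covariates cannot separate sex from valproic acid exposure. The part of these cell types in the values of the Notch genes was not tested.

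As a description of pattern, the genes most like Hes1, Hes5 and Hey1 over the 9 libraries were taken from 12090 genes of at least 5 CPM by the Pearson correlation of log2 CPM. Hes1 was closest to Zswim1 (0.977), Mafk (0.974) and Cacnb1 (0.948). Hes5 was closest to Tubb4b (0.958), Stau1 (0.95) and Utp6 (0.944), and Hey1 to Eps15l1 (0.953), Uhrf2 (0.944) and Peg12 (0.937). The 9 points share groups and depth, and the values are the highest of 12090, so they are a description only. None of these genes stood in the pathway lists above.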

How the data were processed

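RNA of E14 mouse whole brain was read in 9 libraries. The authors deposited 1 table of raw counts per Ensembl gene, used as deposited. Per the labels' protocols, total RNA was depleted of ribosomal RNA and fragmented at random. Per the submitters' processing notes the aligner was HISAT2 and the build GRCm39 (mm39). Which program counted reads, with which strand setting and annotation, is not given in the sources used here. Overlapping antisense genes therefore cannot be told apart, and near-identical copies may share reads. Symbols (52073 of 56748 IDs), chromosomes and exon lengths came from GENCODE M21, which rests on an earlier build, and promoter windows from RefSeq (GRCm38.p6).

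In R 4.3.3, edgeR 4.0.16 kept 17171 genes by filterByExpr with min.count at 10 and min.total.count at 15. Counts were scaled by TMM, which also scales the CPM values. All 9 libraries were fitted with a mean per group and each pair of groups compared by edgeR's two-sided quasi-likelihood F-test, with Benjamini-Hochberg adjustment over all tested genes and calls at an adjusted p under 0.05. Standard errors are the log2 fold change over the square root of F, and intervals are at 95%. Counting error alone limits the lowest member, Hey2, to a CV of 8.17% to 8.98% per library. Within groups the chi-square per degree of freedom between libraries was 3.84 to 6.28, so none was a copy of another. The method was tested on simulated data.

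The members and lists were chosen with earlier results of these data known. All 10 members were named in each comparison, up to 3 called genes per list by smallest adjusted p, and the 3 genes most correlated with Hes1, Hes5 and Hey1. List genes that were not called are counted, not named, and 1 called gene is not reported here. Alternatives were DESeq2 1.42.0 in place of edgeR, its size factors within edgeR, all genes with a count, a minimum of 1 CPM in 3 libraries, the replicate number as a block, a fit of just the 6 libraries compared, a covariate for Y-linked or for Xist expression, libraries with Y-linked genes above 5 CPM alone (poly(I:C) against control), sizes computed without globin, mitochondrial and rRNA genes, and each library left out in turn. Adding the Rbpj-ps3 counts to Rbpj was chosen after seeing the data.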

Additional observations from a re-analysis of the deposited data

How the results depend on the processing

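With 3 libraries per group small differences in the members may go uncalled, and the precision differed between members. In valproic acid against control the SE of the log2 fold change was 0.0363 for Dtx1 and 0.195 for Rbpj. It was 0.148 for Hey2, which had 114 to 186 counts per library. The number of genes called depended on single libraries. Members were 0 called in every comparison as reported. Without a filter on low counts 3 members were called in valproic acid against control (Rbpj, Hes5 and Numb), 2 in poly(I:C) against control (Rbpj and Hes5) and 1 in valproic acid against poly(I:C) (Rbpj). Of the 32102 genes with a count, 1661, 464 and 1057 were then called in the same order. As reported these were 1090, 92 and 445 of 17171, and the cause was not tested. In valproic acid against control, 1 member (Rbpj) was called with only the 6 libraries compared, where 824 of 17171 genes were called. With the Rbpj-ps3 counts added 1 member (Rbpj) was called, among 1095 genes. Leaving out 1 library gave 0 to 2 members. These were Hes5 and Numb without control replicate 3, where 621 genes were called, and Rbpj without valproic acid replicate 1, where 804 were. DESeq2 called 162 genes in poly(I:C) against control. The covariates for Y-linked and Xist expression cannot separate sex from valproic acid exposure. Y-linked expression as a covariate left 272 genes in valproic acid against control and 111 in valproic acid against poly(I:C), Xist as a covariate left 14, 39 and 41 genes in the 3 comparisons, and libraries with Y-linked signal alone gave 59 in poly(I:C) against control. Leaving out 1 library gave 471 to 804 genes in valproic acid against control (471 without control replicate 1, 621 without control replicate 3, 700 without valproic acid replicate 2 and 718 without control replicate 2), 38 to 61 in poly(I:C) against control and 112 to 291 in valproic acid against poly(I:C).

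Of 490 member values under alternatives, 454 kept their direction and side of the threshold, 11 crossed it and 25 turned sign, none of the 25 past it. With Xist as a covariate, valproic acid against control gave -0.00076 for Hes1, -0.0043 for Heyl and 0.037 for Dtx4, and valproic acid against poly(I:C) gave 0.10 for Hes5 and 0.0056 for Dtx4. With Y-linked expression as a covariate Dtx4 had 0.0043 in valproic acid against control. Leaving out 1 library, valproic acid against control ranged between -0.051 and 0.087 for Hes1, -0.040 and 0.038 for Heyl and -0.038 and 0.019 for Dtx4. Poly(I:C) against control ranged between -0.19 and 0.027 for Hey2, -0.013 and 0.039 for Dtx4 and -0.012 and 0.17 for Numb. Valproic acid against poly(I:C) ranged between -0.15 and 0.044 for Hes5, -0.15 and 0.046 for Hey2 and -0.054 and 0.0039 for Dtx4.

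With the replicate number as a block, 0 members and 912, 88 and 340 genes were called in the 3 comparisons, and Rbpj in valproic acid against control had 0.64 (adjusted p 0.0977). Libraries with the same number did not deviate together (correlations of -0.042 to 0.131 over 9 pairs, against -0.091 to 0.048 over 18 pairs with other numbers), so the numbers are not taken as pairs.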

Other observations

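The split of libraries in Rbpj was followed by other genes too. Over the 9 libraries, 32 tested genes had a Pearson correlation of at least 0.9 in size with Rbpj in log2 CPM, and 4 of these (12.5%) lay on chromosome 5 with Rbpj, where 6.44% of all tested genes lie. For comparison, 33 genes were as closely correlated with Hes1, 7 of them (21.2%) on chromosome 5, 25 with Hes5, 2 of them (8%) there, and 66 with Hey1, 2 of them (3.03%) there. These are descriptions over 9 libraries that fall into clusters for Rbpj, looked up after the values were seen.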
